A study of Mesocricetus auratus with 38 samples.

Results

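Livers of hamsters given the lower dose of combined metabolic activators (CMA) on a high-fat diet were compared with livers of hamsters on a normal diet, to find which genes still differed from the control level and which lay at it. The comparison took the 9 libraries labelled HFD + MI_D1 (Dose I) against the 9 labelled Chow diet (control), 18 of the 38 liver libraries of the series. All animals were male Golden Syrian hamsters aged 22 weeks, fasted for 6 h before the liver was taken, and mRNA of the whole liver was sequenced. The control group ate a diet with 11% of its energy from fat for 12 weeks. The Dose I group ate a diet with 23% of its energy from fat and added cholesterol for the same time. In the last 4 weeks it also received 200 mg/kg each of L-carnitine, N-acetylcysteine (NAC) and nicotinamide riboside (NR), and 400 mg/kg betaine in the drinking water. The 10 HFD livers, on the same high-fat diet with placebo in place of CMA, are given beside both groups. No group received CMA on the normal diet, so that diet and CMA cannot be told apart in Dose I against control alone. The labels name no animals, and each library was taken as 1 animal. The p-values measure the spread between these libraries.

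A liver fed fat and cholesterol usually lowers its own production of sterols and fatty acids: cholesterol holds the transcription factor SREBP2 in the endoplasmic reticulum, and polyunsaturated fat restrains SREBP1. Betaine passes a methyl group to homocysteine and is then broken down through dimethylglycine and sarcosine to glycine. NAC supplies cysteine for glutathione, NR is a precursor of NAD, and carnitine carries long-chain fatty acids into mitochondria for oxidation.

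The 8 controls in the main fit held 4075610 to 10384500 estimated counts and the Dose I libraries 4669860 to 6403260. Libraries are named by the last digits of their label, with C for control and D for Dose I. Control C105 stood apart: on the first principal component of all 38 libraries it lay at 19.2, against -23.1 to -12.7 for the other controls and -0.69 to 12.3 for the Dose I group. Values are therefore given over 37 libraries without control C105, and again with it. In the controls, levels went up with transcript length (Spearman rho 0.12 to 0.34 over genes, each library against the mean of all). In the Dose I group rho was -0.26 to 0.13, and in control C105 it was -0.35. The same fit was therefore repeated with the length trend of each library removed. Defining hepatocyte genes were abundant in every library: albumin (Alb) made up 18.3% ± 0.943 (SD, n = 8) of all counts in the controls and 13.3% ± 1.19 (SD, n = 9) in the Dose I group.

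On the first principal component of 37 libraries (26.9% of the variance of 500 genes), the Dose I group lay at 5.47 ± 3.59 (SD, n = 9), the HFD group at 1.13 ± 3.48 (SD, n = 10) and the controls at -17.2 ± 3.24 (SD, n = 8). The Dose I group differed from the controls by 22.6 (exact permutation test, two-sided p = 4.11e-05, the smallest possible, 6.17e-05 adjusted over 3 comparisons). It differed from the HFD group by 4.34 (exact permutation p = 0.00579, adjusted 0.00579), and lay on the far side of it from the controls. With control C105 the difference from the controls was 17.7 (exact permutation p = 0.00181).

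Of 9099 genes tested, 1878 (20.6%) rose and 1826 (20.1%) fell in Dose I against control (edgeR quasi-likelihood test, Benjamini-Hochberg adjusted p under 0.1), and 306 of these changed more than 2-fold. HFD against the same controls gave 1647 genes higher (18.1%) and 1649 lower (18.1%), and Dose I against HFD gave 14 higher (0.154%) and 3 lower (0.033%). For that last comparison, 844 genes had an unadjusted p under 0.05, and DESeq2 called 56 higher and 24 lower. These counts moved with single libraries, to 4 higher and 1 lower without Dose I library D128, 4 and 2 without D127, 32 and 9 without D120 and 47 and 34 without D122. Without D121, D123 or D126 they were 7 and 1, 21 and 7, and 8 and 2. Without control C101, C102, C103 or C104 7 were higher and 2 to 3 lower, and without control C108 9 and 2. The statements on genes that differed between Dose I and HFD rest on these calls. To say which genes lay at the control level, a band of 0.5 on the log2 scale on either side of 0 was used: the 95% interval of the Dose I minus control difference was wholly inside it for 4042 genes (44.4%). Of these, 812 also passed the test (409 rose and 403 fell), with a difference that was small but not 0. Counts of genes that rose, fell or lay inside the band therefore overlap, here and in the lists below. A further 2165 genes neither passed the test nor had such an interval, so that for these no statement can be made in either direction. With control C105 in the fit, 938 genes rose (10.4%) and 1034 fell (11.4%). These shares are the background for list counts given below with control C105, as 20.6% and 20.1% are for the main counts. A list count near its background does not set the list apart from other genes. With the length trend removed, 1692 rose (18.6%) and 1607 fell (17.7%). On TPM values, which divide by the effective transcript length, 35.01% of the called genes were higher in Dose I, against 50.7% of those called on counts. The median log2 fold change over all genes tested was 0.0014.

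The 10 genes with the smallest adjusted p that rose in Dose I livers came from several pathways. They were Apoa2, a high-density lipoprotein protein, Rarres2, which encodes the adipokine chemerin, Prodh, the first enzyme of proline breakdown, Ctsz, a lysosomal protease, Aprt, which salvages adenine, Chchd10, a mitochondrial protein, Amdhd2, of amino sugar breakdown, Wscd2, and the ribosomal protein genes Rps12 and Rps28. In CPM, counts scaled to 1000000 per library, Apoa2 ranged from 1613 to 3589 CPM (median 2425) in the controls and from 4826 to 6498 CPM (median 5540.4) in the Dose I group, and all 9 Dose I libraries lay above the highest control (log2 fold change 1.20, SE 0.12, adjusted p = 3.77e-08). Wscd2 ranged from 2.26 to 37.3 CPM (median 11.5) in the controls and from 52 to 224 CPM (median 113.1) in the Dose I group (log2 fold change 2.73, SE 0.31, adjusted p = 2.14e-07), again with no overlap. The 10 that fell with the smallest adjusted p were Sqle and Cpt1a, described below, Acly, which makes cytosolic acetyl-CoA, Ergic1 and Sec16b, of transport between endoplasmic reticulum and Golgi, the signalling gene Sos1, the kinase gene Uhmk1, the receptor gene Adgrg2, Galnt16, a glycosyltransferase, and 2610507B11Rik. Galnt16 ranged from 11.2 to 30.4 CPM (median 23.2) in the controls and from 1.49 to 9.65 CPM (median 3.74) in the Dose I group, so that all 9 Dose I libraries were below every control (log2 fold change -2.43, SE 0.31, adjusted p = 4.91e-07). All 20 genes also passed with control C105 in the fit and with the length trend removed, and each passed on the same side of control in HFD, from -3.11 for Acly to 2.96 for Wscd2. Control C105 was at 6646 CPM for Apoa2, above every Dose I library, and at 31.1 CPM for Cpt1a, below every one. HFD and Dose I share these controls, so the 2 sets of values are not independent. Groups without overlap are to be expected among genes named for a small adjusted p, here and below. The share of all genes tested without overlap is not given here, so lack of overlap adds no evidence beyond the test.

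**Figure D1:**
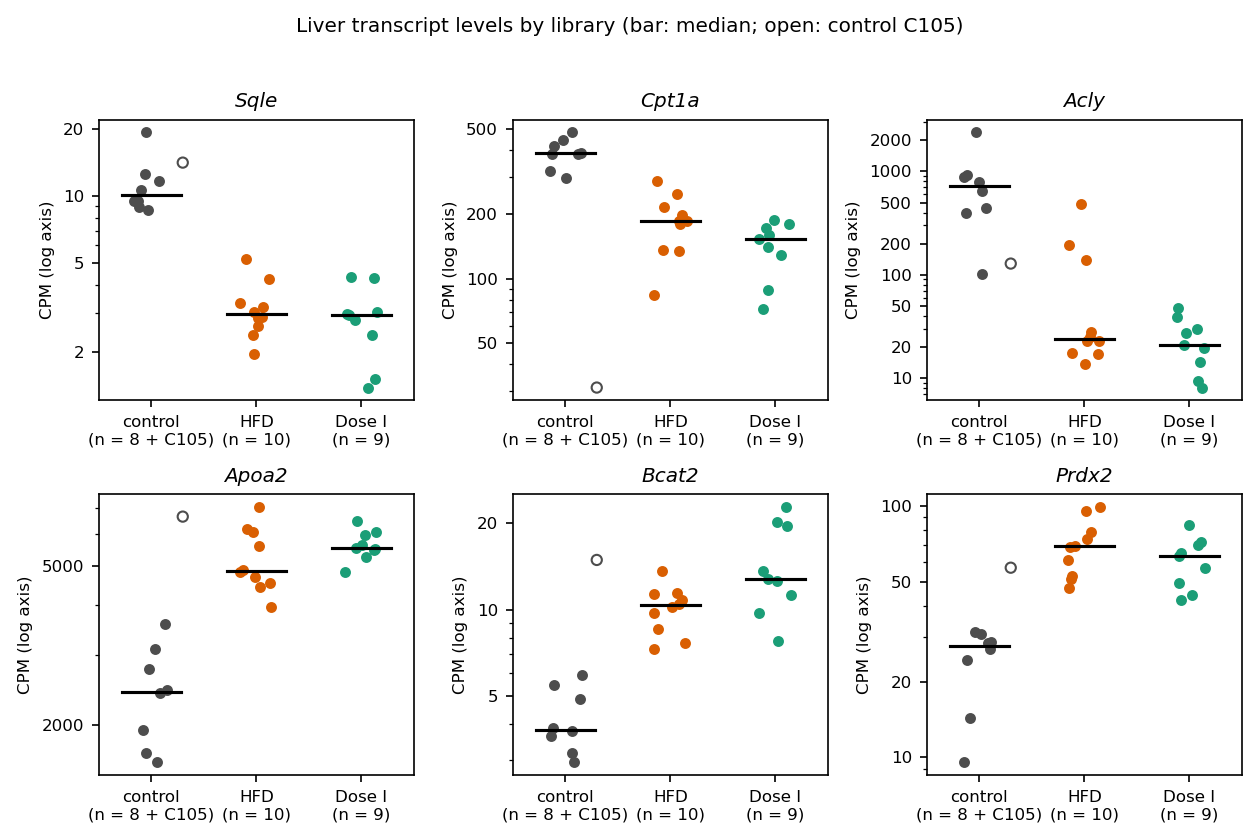
Expression of 6 genes (CPM, log axis) in each liver library of the control, HFD and Dose I groups, with the median of each group as a bar and control C105 as an open symbol. All 9 Dose I libraries lie below the 8 controls of the main fit for Sqle, Cpt1a and Acly, and above them for Apoa2, Bcat2 and Prdx2. Control C105 lies with or past the Dose I libraries for Cpt1a, Apoa2, Bcat2 and Prdx2, and on the control side of them for Sqle and Acly.

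Transcripts of most cholesterol synthesis genes remained below the control level in the Dose I group. Of 18 pathway genes, 13 fell and 1 rose, with a median log2 fold change of -0.70, against 13 lower, 0 higher and a median of -0.64 in HFD against control. Sqle, squalene epoxidase, ranged from 8.66 to 19.3 CPM (median 10.1) in the controls and from 1.38 to 4.32 CPM (median 2.91) in the Dose I group. All 9 Dose I libraries were below the lowest control (log2 fold change -2.003, SE 0.22, adjusted p = 4.36e-08), and the HFD group, from 1.96 to 5.21 CPM (median 2.95), overlapped the Dose I group over most of its range. Hmgcs1, which makes HMG-CoA, ranged from 23.9 to 59.8 CPM (median 29) in the controls and from 7.38 to 19.2 CPM (median 14.9) in the Dose I group (log2 fold change -1.19, SE 0.16, adjusted p = 1.19e-06). Later enzymes fell as well, among them Idi1 (-1.09, adjusted p = 0.000188), Fdft1, squalene synthase (-0.59, adjusted p = 0.00214), Msmo1 (-1.03, adjusted p = 4.17e-05), Hsd17b7 (-1.32, adjusted p = 9.28e-05), Nsdhl (-0.68, adjusted p = 5.16e-05), Tm7sf2 (-0.99, adjusted p = 4.05e-06) and Dhcr7 (-0.87, adjusted p = 0.000183). The gene that rose, Pmvk, phosphomevalonate kinase (0.31, adjusted p = 0.00531), did not pass with control C105 (0.051, adjusted p = 0.85) or with the length trend removed (0.023, adjusted p = 0.875). For Mvk and Mvd, the kinase and decarboxylase of mevalonate, the differences were -0.018 (95% interval -0.43 to 0.40) and -0.0067 (95% interval -0.52 to 0.50). With control C105 in the fit, 13 genes fell and 0 rose.

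Among 15 genes of sterol sensing and LDL uptake, 4 fell and 1 rose (3 and 1 with control C105), where over all genes 20.1% fell and 20.6% rose. Srebf2, which encodes SREBP2, ranged from 16.1 to 30.4 CPM (median 21) in the controls and from 9.86 to 19.8 CPM (median 13.6) in the Dose I group (log2 fold change -0.68, SE 0.14, adjusted p = 0.000293). Stard4, a cytosolic cholesterol carrier, ranged from 2.58 to 8.28 CPM (median 3.9) in the controls and from 0.613 to 3.8 CPM (median 1.86) in the Dose I group (log2 fold change -1.36, SE 0.31, adjusted p = 0.000836). The groups overlapped for both genes, with 6 Dose I libraries below all controls for Srebf2 and 7 for Stard4. The site 1 protease gene Mbtps1, whose product cuts SREBP, also fell (-0.28, adjusted p = 0.000677).

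On the side of sterol removal, 5 of 13 efflux and esterification genes rose and 1 fell, where over all genes 20.6% rose and 20.1% fell. Apoe ranged from 4585 to 9053 CPM (median 6142) in the controls and from 8098 to 17211 CPM (median 13467) in the Dose I group, with 8 of 9 Dose I libraries above all controls (log2 fold change 1.03, SE 0.19, adjusted p = 9.27e-05). The HFD value was close to it (0.9995, adjusted p = 0.000206). Abcg5, a subunit of the canalicular sterol exporter, rose (0.57, adjusted p = 0.0135). With control C105, 3 genes of this list rose and 1 fell. In bile acid synthesis, 3 of 13 genes rose and 2 fell, counts near those shares over all genes. Cyp27a1, the mitochondrial sterol 27-hydroxylase, ranged from 153 to 275 CPM (median 185) in the controls and from 315 to 738 CPM (median 433) in the Dose I group. The groups did not overlap (log2 fold change 1.20, SE 0.17, adjusted p = 2.54e-06). The bile acid receptor gene Nr1h4 (FXR) fell, with all 9 Dose I libraries below every control (log2 fold change -0.73, SE 0.14, adjusted p = 0.000143), whereas its target Nr0b2 (SHP) rose (1.01, adjusted p = 0.00812). Slc27a5, which attaches CoA to bile acids, rose (0.42, adjusted p = 0.000656) and the reductase gene Akr1d1 fell (-0.57, adjusted p = 0.00445). Cyp7a1, the rate-limiting enzyme of the main pathway, had a difference of -0.29 with a 95% interval of -1.15 to 0.57, too wide to place it.

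Transcripts of most fatty acid synthesis genes were lower than in the control group, with 14 of 21 genes fallen and 2 risen (median -0.50). HFD against control gave 11 lower, 2 higher and a median of -0.29. Acly, ATP citrate lyase, ranged from 101.4 to 2388 CPM (median 717) in the controls and from 8.09 to 47.8 CPM (median 20.7) in the Dose I group, and no Dose I library reached the lowest control (log2 fold change -5.10, SE 0.59, adjusted p = 8.06e-07). The HFD libraries spread from 13.8 to 480.0 CPM (median 23.9), with a log2 fold change of -3.11, adjusted p = 0.000169. Me1, malic enzyme, a source of NADPH, ranged from 117.7 to 504 CPM (median 275) in the controls and from 36 to 148 CPM (median 102.6) in the Dose I group (log2 fold change -1.64, SE 0.29, adjusted p = 7.30e-05), and 6 of 9 Dose I libraries were below all controls. Pnpla3, a lipid droplet lipase that carbohydrate feeding induces, ranged from 62 to 542 CPM (median 296) in the controls and from 20 to 120.6 CPM (median 79.2) in the Dose I group, with an overlap between the groups (log2 fold change -2.01, SE 0.38, adjusted p = 0.000157). Acaca, which makes malonyl-CoA, fell (-1.23, adjusted p = 0.00192), as did Acss2 (-0.998, adjusted p = 0.000178) and Scd1, stearoyl-CoA desaturase (-0.68, adjusted p = 0.0261). The desaturases and elongases of polyunsaturated fat fell too: Fads1 (-0.92, adjusted p = 0.00087), Fads2 (-1.04, adjusted p = 0.000834), Elovl5 (-0.73, adjusted p = 1.86e-05) and Elovl2 (-0.68, adjusted p = 7.39e-05). The 2 genes that rose encode transcription factors of this pathway. Mlxipl (ChREBP) ranged from 147 to 253 CPM (median 217) in the controls and from 306 to 459 CPM (median 387) in the Dose I group without overlap (log2 fold change 0.87, SE 0.11, adjusted p = 3.50e-07), and Srebf1 (SREBP1) had 8 of 9 Dose I libraries above all controls (log2 fold change 0.58, SE 0.13, adjusted p = 0.00111). With control C105, 13 genes fell and 2 rose. No gene of the cholesterol or fatty acid synthesis lists passed in Dose I against HFD, where Acly was at -1.99 (adjusted p = 0.178) and Me1 at -0.92 (adjusted p = 0.212).

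**Figure D2:**
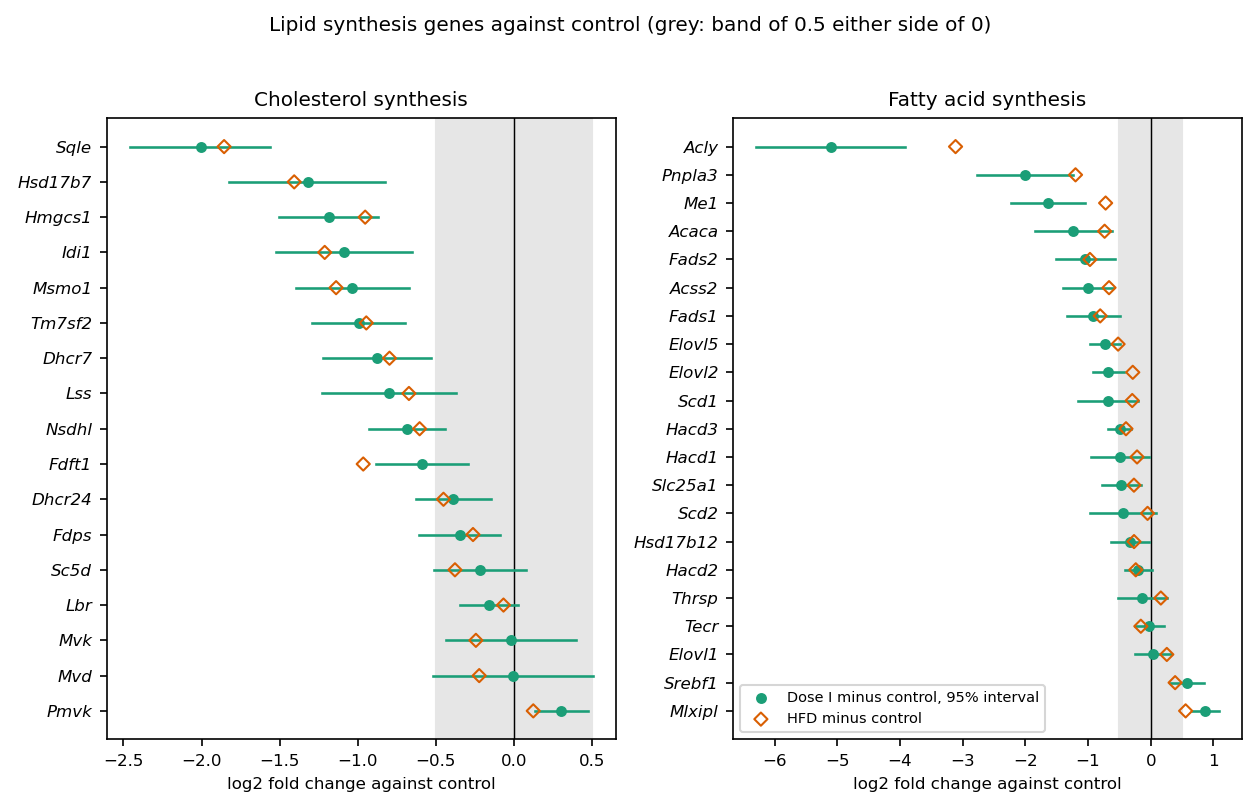
Dose I minus control log2 fold change (point) with its 95% interval (bar) for the tested genes of cholesterol synthesis, 1 gene left out, and of fatty acid synthesis, beside the HFD minus control value (open diamond), with the band of 0.5 on either side of 0 shaded. Sqle and Acly lie farthest to the left, and Mlxipl and Srebf1 lie to the right of 0.

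In triacylglycerol assembly and secretion, 5 of 20 genes fell, 1 rose and 9 had an interval inside the band (4 fell and 0 rose with control C105). Over all genes, 20.1% fell and 20.6% rose. Mttp, which loads lipid onto apolipoprotein B, ranged from 362 to 593 CPM (median 472) in the controls and from 175 to 347 CPM (median 203) in the Dose I group, with all 9 Dose I libraries below every control (log2 fold change -0.99, SE 0.15, adjusted p = 6.04e-06). Apob, its protein partner in VLDL, fell (-0.48, adjusted p = 2.43e-05), and so did Gpam, which starts glycerolipid synthesis (-1.06, adjusted p = 0.00572), and Lipc, hepatic lipase (-0.33, adjusted p = 0.00129). Among 19 uptake and droplet genes, 5 rose and 5 fell (3 and 6 with control C105), counts near those same shares. With the length trend removed 4 rose and 10 fell, and their median went from -0.11 to -0.30. The fatty acid transporter gene Cd36 ranged from 148 to 253 CPM (median 174) in the controls and from 88.4 to 146 CPM (median 98.7) in the Dose I group without overlap (log2 fold change -0.79, SE 0.13, adjusted p = 2.53e-05). Plin3, a droplet coat protein, rose (1.59, adjusted p = 0.00477) and Cidec, which fuses droplets, fell (-0.74, adjusted p = 0.0239). Plin2, the main coat protein of hepatocyte droplets, ranged from 307 to 1225 CPM (median 763) in the controls and from 18.6 to 889 CPM (median 277) in the Dose I group and did not pass (-1.03, adjusted p = 0.106), with the lowest value in Dose I library D127. It passed without control C104 (adjusted p = 0.0826), control C108 (0.0911), Dose I library D120 (0.0486) or Dose I library D122 (0.0371), with the length trend removed (0.0994) and on TPM values (0.0135). Hsd17b13, another droplet protein, had an interval inside the band (0.075, 95% interval -0.14 to 0.29).

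Most genes of fatty acid oxidation lay within the band around the control level. Of 31 genes, 22 had an interval inside the band, against 44.4% of all genes, while 10 fell and 3 rose, against 20.1% and 20.6% of all genes. On TPM values 16 of the 31 fell and 2 rose, and with the length trend removed 12 fell and 2 rose. Cpt1a, the carnitine palmitoyltransferase that admits long-chain fatty acids to mitochondria, ranged from 296 to 482 CPM (median 384) in the controls and from 72.3 to 188 CPM (median 153) in the Dose I group. All 9 Dose I libraries were below the lowest control (log2 fold change -1.45, SE 0.18, adjusted p = 3.50e-07), and the HFD median lay between, with a range from 84.2 to 286 CPM (median 186) that overlapped the Dose I group. The acyl-CoA synthetase genes Acsl1 (-0.43, adjusted p = 0.00507) and Acsl5 (-1.18, adjusted p = 0.000788) fell. Within the spiral itself, Hadha (-0.011, 95% interval -0.24 to 0.22) and Acadm (-0.082, 95% interval -0.22 to 0.056) stayed inside the band. Acadm passed on TPM values (adjusted p = 0.0292). Acads, the short-chain dehydrogenase, rose (0.53, adjusted p = 0.00467) but did not pass with control C105 (0.28, adjusted p = 0.307). With control C105, 9 genes fell and 0 rose. Among 41 peroxisomal genes, 13 fell and 5 rose (10 and 2 with control C105). Abcd3, which imports long-chain acyl-CoA, fell without overlap of the groups (log2 fold change -1.06, SE 0.14, adjusted p = 1.19e-06), and Crot, which makes acylcarnitines there, fell as well (-0.83, adjusted p = 0.000327). Phyh (0.65, adjusted p = 4.93e-05) and Ech1 (0.54, adjusted p = 0.000169), enzymes of phytanic acid and unsaturated fatty acid oxidation, rose, with all 9 Dose I libraries above every control.

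Slc22a5, the carnitine uptake transporter, ranged from 41.6 to 78.1 CPM (median 48.6) in the controls and from 19.6 to 50.5 CPM (median 34.2) in the Dose I group, with 7 of 9 below all controls (log2 fold change -0.64, SE 0.17, adjusted p = 0.00295). In carnitine synthesis, Tmlhe, the first enzyme, fell (-0.54, adjusted p = 0.000909) and Aldh9a1, the third, rose (0.36, adjusted p = 0.000391). Among 18 genes of tryptophan breakdown and NAD, 4 rose and 5 fell, 1 and 3 with control C105, where over all genes 20.6% rose and 20.1% fell. Nampt, the rate-limiting enzyme of NAD salvage, had an interval inside the band (-0.039, 95% interval -0.22 to 0.14), although it passed on TPM values (adjusted p = 0.0196). Ido2, which opens the ring of tryptophan, fell (-0.87, adjusted p = 0.0002), as did Aox1, an aldehyde oxidase that acts on methylated nicotinamide (-0.49, adjusted p = 5.24e-05). Qprt, the entry from tryptophan to NAD, rose (0.62, adjusted p = 0.0024) but not with control C105 (0.40, adjusted p = 0.139).

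Of 21 genes of betaine and methyl metabolism, 3 rose and 8 fell (3 and 7 with control C105), and 12 had an interval inside the band. Over all genes 20.6% rose, 20.1% fell and 44.4% had such an interval. On TPM values 1 gene of the list rose and 10 fell, and with the length trend removed 4 rose and 10 fell. In the main fit, those that fell included Mat1a, which makes S-adenosylmethionine in hepatocytes (-0.32, adjusted p = 0.0132), its relative Mat2a (-0.53, adjusted p = 0.00697), Mtr, methionine synthase (-0.80, adjusted p = 0.00389), Amd1, which commits S-adenosylmethionine to polyamines (-0.57, adjusted p = 0.00441), and Ahcyl1 (-0.35, adjusted p = 5.24e-05). Mat2a did not pass on TPM values (adjusted p = 0.168) and Amd1 did not pass with control C105 (-0.45, adjusted p = 0.101). The 3 that rose were Chdh, Bhmt2 and Gnmt. Chdh, which oxidises choline to betaine, ranged from 94.7 to 124.8 CPM (median 108.7) in the controls and from 109.6 to 161 CPM (median 145) in the Dose I group, with 6 of 9 above all controls (log2 fold change 0.35, SE 0.10, adjusted p = 0.00633). Bhmt2, which methylates homocysteine from S-methylmethionine, ranged from 235 to 409 CPM (median 267) in the controls and from 219.9 to 507 CPM (median 391) in the Dose I group (log2 fold change 0.38, SE 0.14, adjusted p = 0.0337). The groups overlapped over most of the range, and the call was lost on TPM values (adjusted p = 0.298). It was also higher than in HFD (0.56, adjusted p = 0.0924), where HFD against control did not pass (-0.17, adjusted p = 0.371). Gnmt, which uses S-adenosylmethionine to make sarcosine, ranged from 862 to 2235 CPM (median 1489) in the controls and from 1021 to 3265 CPM (median 1917) in the Dose I group, with 3 of 9 above all controls (log2 fold change 0.51, SE 0.20, adjusted p = 0.0451). Its call was lost without control C108 (adjusted p = 0.106), without Dose I library D127 (0.118), on TPM values (0.155) and with the length trend removed (0.152), and Gnmt was higher than in HFD (0.81, adjusted p = 0.0924). Neither the Bhmt2 nor the Gnmt difference from HFD passed with control C105 in the fit (adjusted p = 0.138 and 0.124).

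Dmgdh, dimethylglycine dehydrogenase, the step after betaine gives up its methyl group, lay within the band around the control level in the Dose I group and below it in HFD. It ranged from 326 to 454 CPM (median 373) in the controls and from 310.0 to 509 CPM (median 412) in the Dose I group, and in the HFD group from 206 to 345 CPM (median 289). The HFD libraries were lower than the controls (-0.39, adjusted p = 0.00157) and the Dose I libraries higher than HFD (0.55, adjusted p = 0.00168), also with control C105 (adjusted p = 0.00248). Dose I against control did not pass (0.16, 95% interval -0.030 to 0.34, adjusted p = 0.196), but passed as higher without control C106 (0.0959), without Dose I library D123 (0.0811) and with the length trend removed (0.0593). The next enzyme, Sardh, had an interval inside the band (-0.028, 95% interval -0.26 to 0.20). In the folate list, 2 of 14 genes rose and 1 fell (1 and 1 with control C105), no more than the main shares over all genes (20.6% rose and 20.1% fell). Fpgs, which traps folate in cells by adding glutamates, ranged from 6.97 to 27.1 CPM (median 12.3) in the controls and from 21 to 75.4 CPM (median 34.3) in the Dose I group, with 7 of 9 above all controls (log2 fold change 1.62, SE 0.24, adjusted p = 6.51e-06). It was higher than in HFD as well (0.90, adjusted p = 0.0924), though not with control C105 (adjusted p = 0.198). The folate carrier gene Slc19a1 fell (-0.72, adjusted p = 0.0015). Shmt2, the mitochondrial serine hydroxymethyltransferase, was lower in HFD (-0.48, adjusted p = 0.0128) and -0.0019 in Dose I against control, with an interval of -0.30 to 0.30. Its Dose I against HFD difference did not pass.

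**Figure D3:**
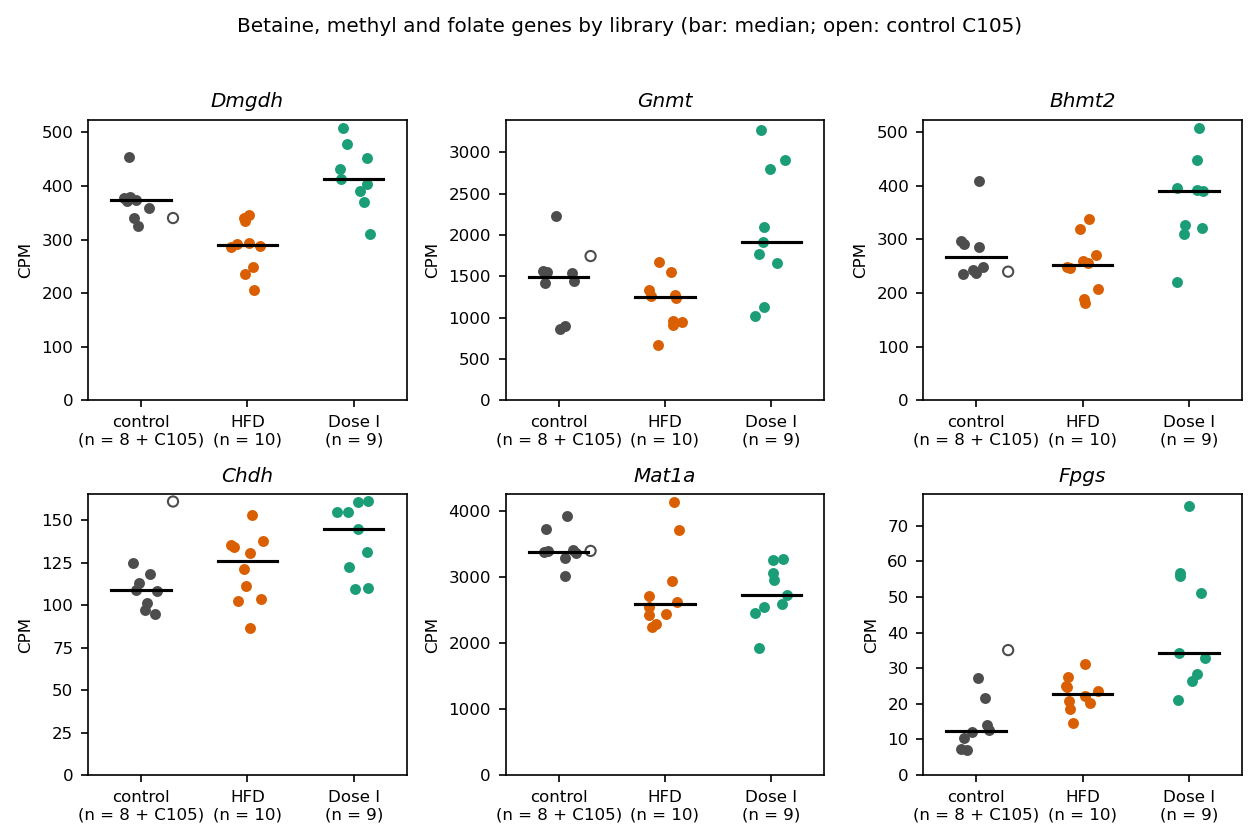
Expression (CPM) of Dmgdh, Gnmt, Bhmt2, Chdh, Mat1a and Fpgs in each library of the control, HFD and Dose I groups, with the group median as a bar and control C105 as an open symbol. Dmgdh is lower in the HFD group, and its Dose I libraries lie in the control range except 2 above it and 1 below it.

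In transsulfuration and glutathione metabolism, 8 of 31 genes rose and 4 fell (3 and 4 with control C105), where over all genes 20.6% rose and 20.1% fell. Suox, sulfite oxidase, the last step of cysteine sulfur, ranged from 104.5 to 142 CPM (median 114.7) in the controls and from 122.9 to 266 CPM (median 217) in the Dose I group, with 8 of 9 above all controls (log2 fold change 0.78, SE 0.12, adjusted p = 1.54e-05). It went past HFD (0.50, adjusted p = 0.0924), but not with control C105 (adjusted p = 0.166). Gpx1, the main glutathione peroxidase, ranged from 1059 to 1576 CPM (median 1389) in the controls and from 1475 to 2693 CPM (median 2346) in the Dose I group (log2 fold change 0.74, SE 0.12, adjusted p = 1.53e-05), and Cbs, the first enzyme of transsulfuration, rose (0.43, adjusted p = 0.00335). Gpx4, which reduces lipid peroxides, rose (0.44, adjusted p = 0.000119), but not with control C105 (0.26, adjusted p = 0.149), in which Gpx4 was at 589 CPM. Gclc, the rate-limiting enzyme of glutathione synthesis, did not pass (0.13, 95% interval -0.21 to 0.46). Cth, the second enzyme of transsulfuration, was lower in HFD (-0.77, adjusted p = 0.000163) and did not pass in Dose I (-0.27, 95% interval -0.56 to 0.029, adjusted p = 0.16). Against control, Cth passed without control C102 (adjusted p = 0.0859), control C107 (0.0979), Dose I library D121 (0.0852) or Dose I library D126 (0.0916), and on TPM values (0.0588). Its Dose I against HFD difference did not pass. Of 24 antioxidant genes, 8 rose and 2 fell (5 and 1 with control C105, but 4 and 6 on TPM values). Prdx2, a cytosolic peroxiredoxin, ranged from 9.57 to 31.4 CPM (median 27.7) in the controls and from 42.3 to 83.8 CPM (median 63) in the Dose I group without overlap (log2 fold change 1.31, SE 0.18, adjusted p = 2.08e-06). Txn1, thioredoxin, rose (0.49, adjusted p = 4.84e-05) and its reductase gene Txnrd1 fell (-0.61, adjusted p = 0.00148). Hmox1, which degrades heme, was higher in HFD (0.52, adjusted p = 0.00117), lower in Dose I than in HFD (-0.47, adjusted p = 0.0924) and 0.046 against control (95% interval -0.20 to 0.29).

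In branched-chain amino acid breakdown, 7 of 26 genes rose, 8 fell and 18 had an interval inside the band (4 rose and 4 fell with control C105). Bcat2, the mitochondrial transaminase of the first step, ranged from 2.94 to 5.94 CPM (median 3.82) in the controls and from 7.79 to 22.8 CPM (median 12.8) in the Dose I group, and the groups did not overlap (log2 fold change 1.79, SE 0.23, adjusted p = 5.18e-07). Mmut, of the last step to succinyl-CoA, fell without overlap (log2 fold change -0.44, SE 0.076, adjusted p = 4.45e-05). Dbt, of the branched-chain dehydrogenase, fell (-0.41, adjusted p = 0.00591) and its partner Bckdha rose (0.60, adjusted p = 0.000738), and neither passed with control C105 (0.166 and 0.148). In lysine breakdown, 7 of 17 fell and 1 rose, with Dhtkd1, of 2-oxoadipate breakdown, among the former (-0.82, adjusted p = 0.00382). In the urea, arginine and proline list, 8 of 28 rose and 6 fell, and neither these counts nor those of branched-chain breakdown are far from the shares over all genes (20.6% rose and 20.1% fell). Prodh ranged from 71.9 to 116.1 CPM (median 96.5) in the controls and from 138.4 to 194 CPM (median 164) in the Dose I group (log2 fold change 0.77, SE 0.081, adjusted p = 3.77e-08). Hoga1, of hydroxyproline breakdown, ranged from 165 to 299 CPM (median 217) in the controls and from 338 to 430.3 CPM (median 375) in the Dose I group (log2 fold change 0.73, SE 0.11, adjusted p = 3.99e-06). All 9 Dose I libraries lay above every control for both genes. Gpt2, a mitochondrial alanine transaminase, ranged from 55.3 to 131.8 CPM (median 93.2) in the controls and from 106.3 to 384 CPM (median 197) in the Dose I group , with 7 of 9 above all controls (log2 fold change 1.21, SE 0.22, adjusted p = 8.13e-05). Asl, of the urea cycle, rose (0.70, adjusted p = 0.000504), while Cps1, its first enzyme, had a difference of 0.10 (95% interval -0.17 to 0.37). Sds, serine dehydratase, ranged from 29.3 to 91 CPM (median 43.4) in the controls and from 43.4 to 409.6 CPM (median 65.8) in the Dose I group (log2 fold change 1.13, SE 0.36, adjusted p = 0.0158), and its call rested on Dose I library D127, the highest library (adjusted p = 0.169 without it).

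In the citric acid cycle list, 8 of 28 rose and 8 fell (2 and 6 with control C105), where over all genes 20.6% rose and 20.1% fell. Pdk1, which shuts off pyruvate dehydrogenase, ranged from 7.52 to 12.1 CPM (median 10.2) in the controls and from 2.6 to 7.43 CPM (median 4.25) in the Dose I group (log2 fold change -1.10, SE 0.19, adjusted p = 4.72e-05), without overlap, and Aco1, cytosolic aconitase, fell (-0.56, adjusted p = 5.92e-05). Of 22 glucose genes, 3 rose and 4 fell, no more than the shares over all genes. Pfkl, liver phosphofructokinase (0.65, adjusted p = 1.99e-05), and Pck1, of gluconeogenesis (0.75, adjusted p = 0.0178), were among those that rose. In the insulin, AMPK and mTOR list (31 genes, 6 rose, 9 fell, and 6 and 4 with control C105), the docking protein gene Irs1 (-1.03, adjusted p = 0.00117) and the kinase gene Pdpk1 (-0.97, adjusted p = 9.40e-06) fell, while Akt1 (0.49, adjusted p = 2.41e-05) and the translation repressor gene Eif4ebp1 (0.84, adjusted p = 6.28e-05) rose. The clock list had 4 rises and 1 fall among 17 genes (2 and 1 with control C105). The fall was that of Clock, an activator of the clock (-1.29, adjusted p = 0.00034).

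Among 23 apolipoprotein and HDL genes, 8 rose and 7 fell. Besides Apoa2, the rises included Apoa5, an activator of lipoprotein lipase, which ranged from 1215 to 1951 CPM (median 1535) in the controls and from 1966 to 3331 CPM (median 2575) in the Dose I group without overlap (log2 fold change 0.79, SE 0.12, adjusted p = 7.48e-06). The paraoxonase genes Pon1 (-0.23, adjusted p = 0.0131) and Pon3 (-0.47, adjusted p = 7.12e-05) fell. Of 47 plasma protein genes, 9 rose and 12 fell (2 and 12 with control C105), counts near the shares over all genes of 20.6% and 20.1%. Alb fell, with all 9 Dose I libraries below every control (log2 fold change -0.50, SE 0.094, adjusted p = 9.34e-05), and Rbp4, the retinol carrier of plasma, rose (log2 fold change 0.43, SE 0.060, adjusted p = 2.40e-06), also without overlap. In whole liver, fewer cells of a type and less RNA per cell cannot be told apart. The summed level of 19 hepatocyte markers was 288267 to 326455 CPM in the controls and 211133 to 274393 CPM in the Dose I group, without overlap. The mean sum was 301862 CPM in the controls and 241954 CPM in the Dose I group, and most of that difference was Alb, at a mean of 187843 CPM and 133189 CPM. Of these markers, 2 rose and 4 fell (median log2 fold change -0.029), with 0 and 3 when control C105 was in the fit. Their part in other results was not tested.

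Of 35 drug-metabolising genes, 8 rose and 13 fell (7 and 8 with control C105), where over all genes 20.6% rose and 20.1% fell. Cyp2g1, a cytochrome P450, ranged from 6.33 to 26.5 CPM (median 10.2) in the controls and from 0.336 to 4.76 CPM (median 1.55) in the Dose I group, all Dose I libraries below the controls (log2 fold change -2.95, SE 0.49, adjusted p = 1.43e-05), and the HFD value was of like size (-3.30, adjusted p = 5.47e-06). The receptor gene Nr1i3 (CAR, log2 fold change 0.62, SE 0.11, adjusted p = 4.28e-05) rose, with all 9 Dose I libraries above every control. Sult1a1, a phenol sulfotransferase, set Dose I apart from both other groups. It ranged from 62.6 to 153 CPM (median 102.6) in the controls and from 95.7 to 509 CPM (median 170.2) in the Dose I group, and in HFD from 43.9 to 161 CPM (median 78.6). It was higher than control (log2 fold change 1.30, SE 0.27, adjusted p = 0.000456) and higher than HFD (1.58, adjusted p = 0.00168), where HFD against control did not pass (-0.28, adjusted p = 0.46). Control C105 was at 305 CPM, and with it both calls remained (adjusted p = 0.0159 and 0.00972). Cyp26a1, which inactivates retinoic acid, ranged from 0.202 to 3.52 CPM (median 0.744) in the controls and from 1.86 to 26.3 CPM (median 3.68) in the Dose I group, with 5 of 9 above all controls (log2 fold change 2.70, SE 0.64, adjusted p = 0.000798). It was low in every HFD library, from 0.339 to 2.19 CPM (median 1.26), and differed from HFD (2.60, adjusted p = 0.0492). In a retinoid list of 22 genes, chosen after its values were seen, 8 rose and 4 fell (4 and 3 with control C105), with Rdh11, a retinal reductase, among the latter (-0.74, adjusted p = 1.53e-05).

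The rule for genes that set Dose I apart from HFD as well as control gave 8 genes, of which 7 are reported here, Sult1a1, Cyp26a1, Bhmt2 and Gnmt above. Pnkd ranged from 9.01 to 24 CPM (median 16.4) in the controls and from 14.3 to 38.6 CPM (median 26.4) in the Dose I group (log2 fold change 0.74, SE 0.22, adjusted p = 0.00829) and was above HFD (0.96, adjusted p = 0.06). The others were Sesn1, a stress-induced inhibitor of mTOR (0.45, adjusted p = 0.0318), and Retreg1, a receptor for autophagy of the endoplasmic reticulum (0.88, adjusted p = 0.051). Both calls against control rested on Dose I library D127, the highest library for each, with an adjusted p of 0.133 for Sesn1 and 0.358 for Retreg1 without it. Retreg1 also missed on TPM values (adjusted p = 0.242).

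The rule for genes that differed from control in HFD and lay nearer to it in Dose I, with a Dose I against HFD difference past the test, gave 7 genes. Besides Dmgdh and Hmox1 these were Tmed3, a cargo receptor of the secretory pathway, Ppfia1, Fcgr4, an immunoglobulin receptor of macrophages, Smim13 and Ung, which removes uracil from DNA. The same HFD libraries enter both differences of the rule, so a deviation of HFD alone can meet it. That choice favours small differences between Dose I and control, which are therefore no separate evidence of a return to control. Fcgr4 ranged from 15 to 22.1 CPM (median 18.1) in the controls and from 11.7 to 25.8 CPM (median 15.5) in the Dose I group, and in HFD from 19.6 to 34.7 CPM (median 28.3). It was 0.61 in HFD against control (adjusted p = 0.00209), -0.63 in Dose I against HFD (0.074) and -0.017 in Dose I against control. Ppfia1 had the narrowest interval against control of the 7, -0.18 to 0.080 (-0.048), and was below control in HFD (-0.32, adjusted p = 0.000294). Tmed3 was 0.25 against control (adjusted p = 0.111), and passed as higher when 1 of 5 libraries was left out, without control C103 (0.0989), control C108 (0.0654), Dose I library D121 (0.0851), Dose I library D125 (0.0725) or Dose I library D126 (0.0884). Smim13 and Ung were 0.17 (95% interval -0.16 to 0.49) and 0.052 (95% interval -0.16 to 0.27) against control. With control C105 in the fit, Dmgdh was the 1 gene of the 7 whose Dose I against HFD difference passed, and the others had an adjusted p of 0.124 (Hmox1 and Fcgr4) to 0.201 (Ppfia1 and Smim13).

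Of 25 cytosolic ribosomal protein genes, 24 rose (median 0.52). Of 59 nuclear genes of oxidative phosphorylation, 53 rose (median 0.33), and of 67 mitochondrial ribosomal protein genes, 43 rose (median 0.29). None of these fell, while 2 oxidative phosphorylation and 1 mitochondrial ribosomal gene fell with the length trend removed, and 2 of each on TPM values. Rps12 ranged from 139.3 to 191 CPM (median 153) in the controls and from 224 to 316 CPM (median 268) in the Dose I group without overlap (log2 fold change 0.79, SE 0.086, adjusted p = 4.36e-08). Ndufc2, of complex I (log2 fold change 0.65, SE 0.10, adjusted p = 6.04e-06), Uqcrq, of complex III (log2 fold change 0.86, SE 0.13, adjusted p = 6.46e-06), and Mrpl2, of the mitochondrial ribosome (log2 fold change 0.61, SE 0.077, adjusted p = 4.47e-07), rose too. The HFD medians were 0.40, 0.30 and 0.25 for the same lists. These are short transcripts, and the length trend moved with them: 22 of 30 very long transcripts fell and none rose (12 fell with control C105), with a summed level of 1377 to 1699 CPM in the controls and 1088 to 1453 CPM in the Dose I group. With the trend removed, 17, 32 and 31 of the 3 lists rose, and with control C105 in the fit 8, 11 and 9, where 10.4% of all genes rose, a share that the mitochondrial ribosomal list came near. Among the 13 genes of the mitochondrial genome, 11 rose and none fell (median 0.31), and the count was 11 with control C105. It was 9 with the length trend removed (median 0.20) and 9 on TPM values. In HFD against control 10 of them were higher (median 0.22). ATP6, of ATP synthase, ranged from 7255 to 10097 CPM (median 8449) in the controls and from 10429 to 12434 CPM (median 11159) in the Dose I group without overlap (log2 fold change 0.43, SE 0.071, adjusted p = 2.18e-05), and the summed level was 78783 to 101772 CPM in the controls and 100147 to 122696 CPM in the Dose I group. The spliceosome list had 18 rises and 8 falls among 63 genes (5 and 2 with control C105, and 12 and 13 on TPM values), and 27 of 28 proteasome genes had an interval inside the band. The part of transcript length in these results was not tested beyond those counts.

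**Figure D4:**
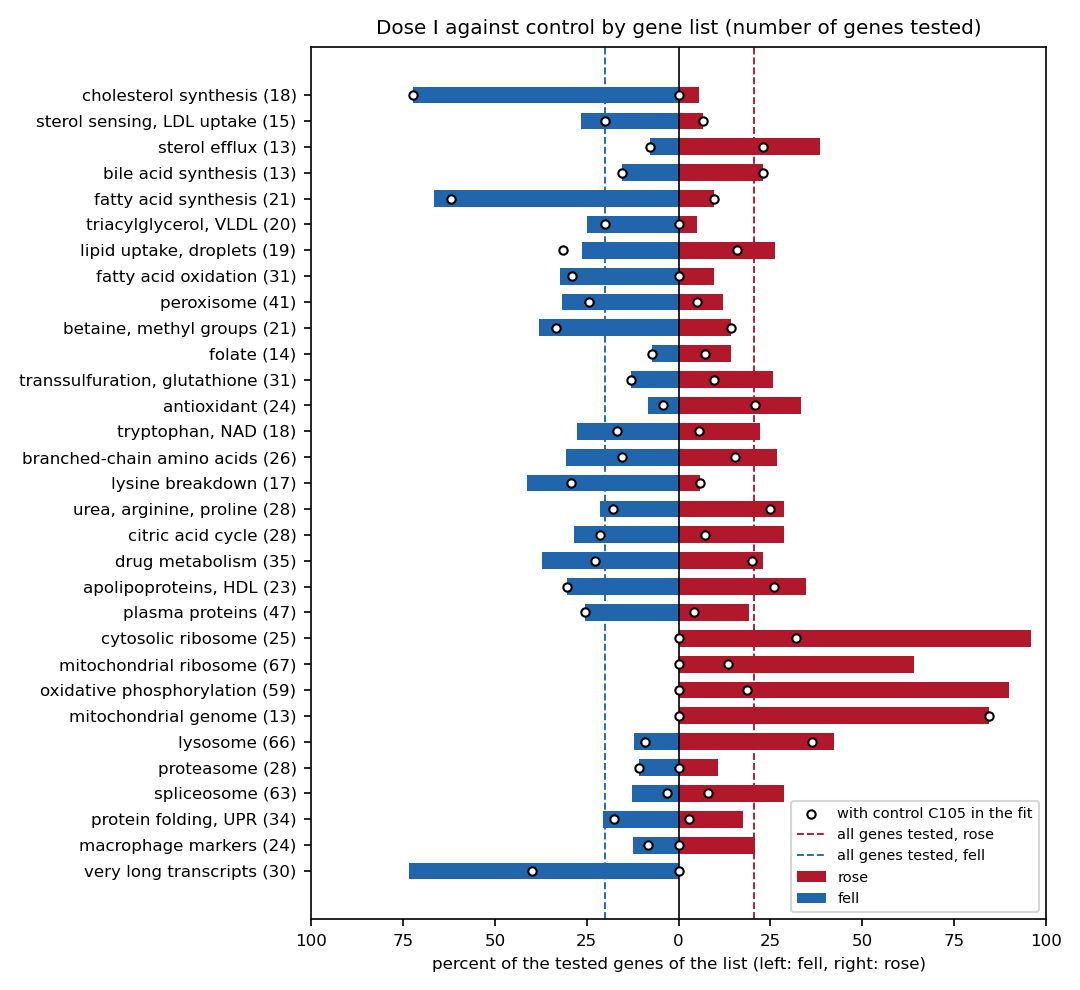
Percent of the tested genes of each list that rose (right) or fell (left) in Dose I against control, with the shares over all 9099 genes (20.6% and 20.1%) as vertical lines and the share with control C105 in the fit as open circles. The ribosomal and respiratory chain lists reach farthest to the right, and cholesterol and fatty acid synthesis farthest to the left among the pathways.

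Many genes of transport between endoplasmic reticulum and Golgi were lower. In a list of 46 genes, chosen after its values were seen, 24 fell and 7 rose (21 and 4 with the length trend removed, 17 and 1 with control C105). Ergic1, of the intermediate compartment, ranged from 111.2 to 180.5 CPM (median 125.03) in the controls and from 48.9 to 78.1 CPM (median 54.9) in the Dose I group (log2 fold change -1.15, SE 0.14, adjusted p = 1.83e-07). Sec23a, of the COPII coat, ranged from 76.8 to 115.4 CPM (median 85.4) in the controls and from 29.3 to 59 CPM (median 44.1) in the Dose I group (log2 fold change -1.02, SE 0.14, adjusted p = 1.31e-06). All 9 Dose I libraries lay below every control for both genes. Of 34 genes of protein folding and the unfolded protein response, 6 rose and 7 fell (1 and 6 with control C105). The main counts are near the shares over all genes, of which 20.6% rose and 20.1% fell. Sel1l, of protein degradation in the endoplasmic reticulum, was among those that fell (-0.94, adjusted p = 0.000836). Lysosomal genes went the other way from the transport list, with 28 of 66 risen and 8 fallen (24 and 6 with control C105). Ctsz ranged from 113.9 to 158 CPM (median 137.7) in the controls and from 199 to 351 CPM (median 281) in the Dose I group (log2 fold change 0.97, SE 0.10, adjusted p = 4.36e-08). Hexa, a subunit of hexosaminidase, ranged from 7.73 to 13.8 CPM (median 11.4) in the controls and from 20.3 to 36.7 CPM (median 24.4) in the Dose I group (log2 fold change 1.20, SE 0.18, adjusted p = 4.75e-06). The groups did not overlap for either gene. Ids, iduronate sulfatase, fell, with all 9 Dose I libraries below every control (log2 fold change -1.33, SE 0.23, adjusted p = 4.28e-05).

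Macrophage markers were higher than control in HFD and were spread on both sides of the control level in Dose I. In HFD against control, 15 of 24 markers were higher and 0 lower (median 0.51). In Dose I against control, 5 rose and 3 fell (median 0.039), and 7 had an interval inside the band. With control C105, 0 rose and 2 fell. Over all genes in the main fit, 20.6% rose and 20.1% fell. An interval inside the band was found for 44.4% of all genes, a larger share than the 7 of 24 markers. The direct difference of Dose I from HFD passed for no marker higher and for 1 lower, Hmox1 (median -0.41). The summed level was 476 to 674 CPM (median 535) in the controls, 598 to 997 CPM (median 784) in HFD and 475 to 877 CPM (median 538) in the Dose I group, so that the ranges of Dose I and HFD overlapped. In control C105 the sum was 1008 CPM. Csf1r, the macrophage growth factor receptor, was 0.025 in Dose I against control (95% interval -0.23 to 0.28) and 0.39 in HFD (adjusted p = 0.0167). C1qb, of complement, was 0.032 (95% interval -0.27 to 0.34) and 0.45 in HFD (0.0186). Marco, a scavenger receptor of Kupffer cells, ranged from 34.4 to 54.6 CPM (median 43.2) in the controls and from 41.4 to 89.2 CPM (median 58.8) in the Dose I group, and was higher in Dose I (0.46, adjusted p = 0.0233) and in HFD (1.01, adjusted p = 2.17e-05). C1qa also rose (0.44, adjusted p = 0.0171), and Mpeg1 fell (-0.49, adjusted p = 0.0117). The call of Marco was lost with control C105 (0.335), and so was that of C1qa (0.734).

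**Figure D5:**
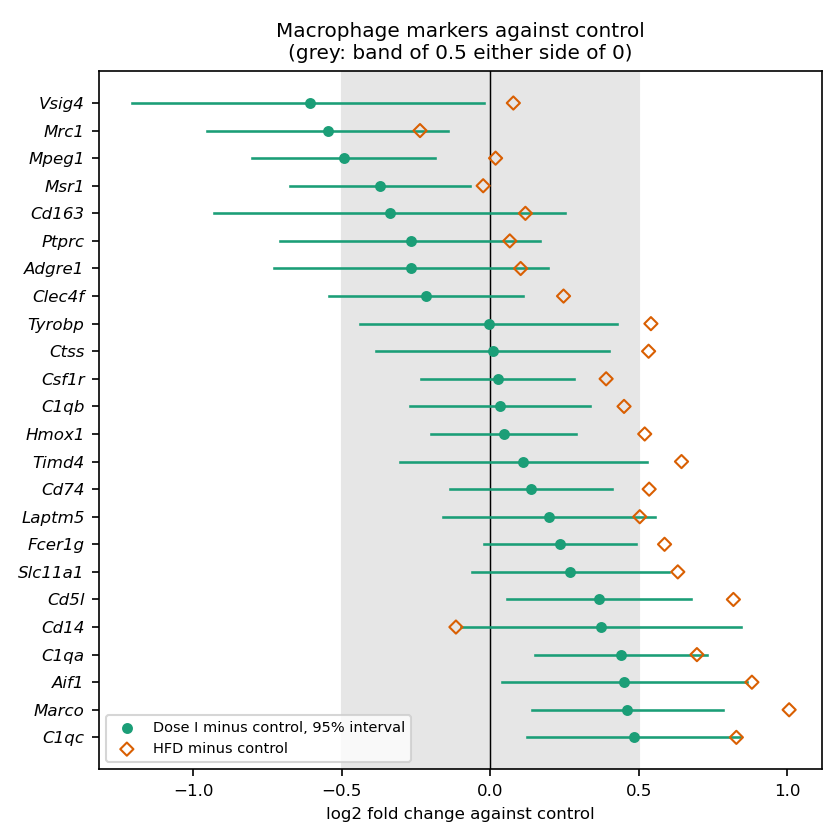
Log2 fold change against control for each of the 24 tested macrophage markers in Dose I (filled circle, with its 95% interval) and in HFD (open diamond), both against the same 8 controls. The Dose I value lies to the left of the HFD value for 23 of the 24 markers, and the Dose I values scatter on both sides of 0. That count gives only the sign of Dose I minus HFD, and markers of 1 cell type are not independent observations. The difference passed for 1 marker, and its median was -0.41, against 0.0015 over all genes tested.

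Of 19 endothelial markers, 2 rose and 6 fell, where 20.6% and 20.1% of all genes did so (0 and 4 with control C105), with the transcription factor gene Gata4 (-0.68, adjusted p = 0.00357) and the VEGF receptor gene Kdr (-0.47, adjusted p = 0.014) among the latter. Of 16 stellate and fibroblast markers, 3 fell and none rose, among them Reln, an extracellular matrix glycoprotein (-1.002, adjusted p = 1.53e-05), and the growth factor receptor gene Pdgfra (-0.69, adjusted p = 0.000674). Among 30 matrix genes, 2 rose and 5 fell (0 and 2 with control C105), the latter with the collagen gene Col14a1 (-0.69, adjusted p = 0.000794). Of 8 cholangiocyte markers, 2 rose, among them the keratin gene Krt19, which ranged from 0.422 to 2.01 CPM (median 1.09) in the controls and from 0.661 to 5.44 CPM (median 2.68) in the Dose I group (1.23, adjusted p = 0.00602). Of 21 interferon and antigen presentation genes, 4 rose and 2 fell (3 and 2 with control C105). The immunoproteasome genes Psmb8 (0.71, adjusted p = 0.00251) and Psmb9 (0.67, adjusted p = 0.0024) rose, and the viral RNA sensor gene Ddx58 fell (-0.75, adjusted p = 0.00104). The 3 lymphocyte and 4 erythroid and platelet markers tested gave no call, and the summed lymphocyte markers were 17.8 to 63.8 CPM in the controls and 19.7 to 58.5 CPM in the Dose I group.

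A list of 35 genes named by the study holds genes it reports as higher in Dose II, the higher CMA dose, than in HFD. The same HFD libraries are used here, and such a choice favours genes low in HFD. The direction of the list, above all in HFD against control, is therefore not independent evidence. In Dose I against control, 15 of them rose, 2 fell and 20 had an interval inside the band (median 0.20). In HFD against control, 7 were higher and 11 lower (median -0.10). With control C105, 7 rose and 0 fell in Dose I. Genes of this list within the band in Dose I and lower in HFD included the acyl-CoA synthetase Acsm1 (-0.087, 95% interval -0.23 to 0.053, and -0.32 in HFD with adjusted p = 0.000584) and Pcca, of propionate use (-0.062, 95% interval -0.22 to 0.091, and -0.24 with adjusted p = 0.0134). Acsm1 passed as lower on TPM values (adjusted p = 0.0505). Neither Acsm1 (0.24, adjusted p = 0.149) nor Pcca (0.18, adjusted p = 0.421) differed from HFD by the test.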

How the data were processed

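The deposited tables held the estimated counts that the authors obtained by pseudoalignment with kallisto to MesAur1.0, the hamster build, summed to 14631 gene symbols without pooling of replicates, and the TPM values the authors derived from the same estimates, which divide by transcript length and scale each library to a fixed total. The kallisto version is not given in the sources used here. All columns were matched to libraries through their labels. Estimated counts were rounded to whole numbers, low genes were removed with filterByExpr, libraries were scaled by TMM, and 37 libraries of the 4 groups were fitted together with edgeR's quasi-likelihood test (edgeR 4.0.16, R 4.3.3), with 1 coefficient per group and Benjamini-Hochberg adjusted p under 0.1 as the call, the study's threshold. The study left out 1 control after a principal component analysis without naming it in the sources used here. Control C105 was left out as the control that stands apart, and the fit was repeated over 38 libraries. CPM values were scaled by TMM, and control ranges are over the other 8 controls. Intervals are 95% Wald intervals from the same fit. The first principal component was taken over the 500 most variable genes on log2 CPM with a prior count of 2, and groups were compared by exact permutation tests. In the control, HFD and Dose I groups no pair of libraries was closer than sampling noise, so none was counted as a duplicate.

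Alternatives were the 2 groups alone, RLE scaling, DESeq2 1.42.0, no filter, at least 10 counts in every library, limma-trend (limma 3.58.1) on log2(TPM + 1) and log2(TPM + 0.1), a robust fit, a threshold of 0.05, a band of 0.3, removal of each library's trend with relative gene length by a lowess curve of span 0.3, and each library left out in turn. Fold changes on log2(TPM + 1) understate the change of low genes. On simulated counts for 9048 genes, 93% of genes changed by 1 and 51% of genes changed by 0.5 on the log2 scale were called for Dose I against control, with 0.113% of unchanged genes called. In that simulation 100 genes were changed by 1, 100 by 0.5 and 8848 not at all, whereas 3704 genes were called in the data. The adjusted p depends on the share of changed genes, so these percentages do not carry over to the data.

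The comparison and its 49 gene lists were chosen with earlier results of these data known, and 2 of the lists, of transport between endoplasmic reticulum and Golgi and of retinoids, were added after values were seen. Genes with a mean of at least 1 CPM were named by these rules: the 10 smallest adjusted p in each direction, for each cited list up to 5 members, taken by adjusted p, and the most abundant by mean TPM, the genes the study names, the rate-limiting enzymes, the defining cell type markers, and the genes that lay back toward control from HFD, past HFD or apart from HFD. Named after their values were seen were Acadm, Acads, Acsl1, Acss2, Asl, C1qb, Cidec, Csf1r, Dbt, Dhcr7, Fads1, Fads2, Fdft1, Hadha, Hsd17b13, Hsd17b7, Idi1, Ids, Mat1a, Mat2a, Mvd, Mvk, Plin2, Pnpla3, Pon1, Pon3 and Srebf1. Some genes that the rules name are not reported here. Promoter sequences were not analysed here.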

Additional observations from a re-analysis of the deposited data

Results flagged for a closer look

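For each of the 162 named genes, the highest and the lowest library of the control and the Dose I group were compared with the nearest other library, as the gap divided by the group's whole range. In 22 of 324 such groups this share was above Dixon's critical value, and chance alone flags about 1 in 20 groups. On the first principal component of 38 libraries, control C105 was separated from the other controls by 0.755 of the range of 9.

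Dose I library D127 was the library that stood apart for 6 genes. It was the lowest for Cidec (0.61 of the range, 9.57 CPM against 35.01 CPM in the next library), Gpam (0.549, 75.3 CPM against 264 CPM), Hmgcs1 (0.611, 7.38 CPM against 13.3 CPM), Rdh11 (0.551, 12.8 CPM against 17.5 CPM) and Sec16b (0.66, 52.4 CPM against 85.9 CPM). It was the highest for Sds (0.517, 409.6 CPM against 128.6 CPM). Without it the calls of Cidec, Gpam, Hmgcs1, Rdh11 and Sec16b against control were kept, and that of Sds was lost. Dose I library D122 was highest for Hexa (0.538) and lowest for Txnrd1 (0.512), and Dose I library D125 was lowest for Uqcrq (0.512).

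Control C109 was the highest control for Elovl5 (0.778, 975 CPM against 629.8 CPM), Ergic1 (0.567), Hmgcs1 (0.58), Sec23a (0.558) and Sqle (0.544). Control C103 was the highest for Irs1 (0.558) and Sos1 (0.551) and the lowest for Fdft1 (0.575) and Hmox1 (0.588). Control C106 was the highest for Bhmt2 (0.583) and Dmgdh (0.54) and the lowest for Acss2 (0.543), and control C104 was the highest for Asl (0.549). Without these controls the calls of Elovl5, Ergic1, Hmgcs1, Sec23a, Sqle, Irs1, Sos1, Fdft1, Bhmt2, Acss2 and Asl were kept, while Dmgdh passed as higher in Dose I without control C106 (adjusted p = 0.0959).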

How the results depend on the processing

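With control C105 in the fit, 938 genes rose and 1034 fell, and with the length trend also removed, a setting added after seeing the data, 985 rose and 1037 fell. Of the 1972 genes called over 38 libraries, 1948 were also called over 37. A band of 0.3 held the interval of 1332 genes. When 1 library was left out at a time, 1705 to 1909 genes rose, 1532 to 1853 fell, 3808 to 4001 intervals lay inside the band, and the difference on the first principal component was 21.7 to 23.1 (highest exact permutation p = 0.000155). The other settings kept these counts within 1.5 times: 1836 and 1728 genes rose and fell with only the 2 groups in the fit, 1869 and 1829 with RLE scaling, 1880 and 1827 with DESeq2, 1812 and 1730 without a filter, 1655 and 1610 with at least 10 counts in every library, 1330 and 2469 on log2(TPM + 1), and 1532 and 1442 at a threshold of 0.05. Among the 162 genes named, Pmvk was the 1 that changed sign, at -0.075 over 38 libraries with the length trend removed. With control C105 alone, 9 calls among them were lost, Acads, Amd1, Bckdha, C1qa, Dbt, Gpx4, Marco, Pmvk and Qprt, and no call was gained or lost with the 2 groups alone, RLE scaling or DESeq2. The cause of these changes was not tested. In Dose I against HFD, 5 genes were higher and 0 lower with control C105 (edgeR, 646 at an unadjusted p under 0.05), against 14 and 3 without it. Leaving out 1 library at a time gave 4 to 47 higher and 1 to 34 lower, the fewest without Dose I library D128 and the most without D122, and a robust fit gave 6 and 2. No paired analysis was possible because the labels number all libraries in 1 series, so that no 2 groups share a number. Depth limits the low genes: 1 count is a larger share of a level of a few CPM, and 2165 genes could be placed neither inside the band nor past the test.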
